A study of Mus musculus with 12 samples.

Results

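The transcripts uc012cfg.1 and uc012fsd.1 are 2 of the 61396 IDs counted in every library. They were picked by ID because both held ribosome footprint counts in heated Mettl14 knockout cells and none in knockout cells after recovery. Both passed the filter on low counts, as did 618 transcripts in all. The IDs are in the UCSC known gene style, and 0 of the 61396 were found in the RefSeq tables at hand, so neither is given a gene name or a sequence.

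The libraries are ribosome profiling libraries of V6.5 mouse embryonic stem cells, a cultured pluripotent line that was grown on gelatin with LIF and inhibitors of GSK3 and MEK1. They were wild type (WT) or Mettl14 -/- (KO). Each genotype has an unheated group (noHS), a group after 30 min at 42 °C (HS) and a group given the same heat and then 1 h at 37 °C (recovery), with 2 biological replicates in each of the 6 groups, 12 libraries in all. Cycloheximide, which halts elongating ribosomes, was present during washing and lysis in every group. The labels name no allele or clone for the knockout, and without gene names neither the loss of Mettl14 nor stem cell markers were checked in the counts.

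Mettl14 is the partner subunit of Mettl3 in the complex that writes N6-methyladenosine (m6A) into mRNA, a mark that affects how long an mRNA lasts and how it is translated. Heat shock makes cells produce chaperones, the proteins that help others fold, while initiation on many other mRNAs falls, and this is reversed as cells recover. A footprint count reflects ribosome occupancy summed over every copy of an mRNA in a sample. Fewer ribosomes per mRNA, less of the mRNA per cell and fewer cells that hold the mRNA cannot be told apart in these counts.

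Depth was low and uneven. The files hold 679360 to 2084034 reads, of which 8569 to 182409 were assigned to a transcript. From 17.7% to 88.9% of the assigned counts lay in 4 dominant transcripts, each above 10% of some library in one of the count columns. Outside these, 7053 to 36987 counts remained. The extremes touch both transcripts described here. WT HS replicate 1 had the highest assigned share of reads, 8.75%, and the smallest TMM factor, 0.296. Both KO recovery libraries, which held no counts of the pair, stood apart from all others. In replicates 1 and 2 the assigned shares were 1.27% and 1.26%, and the TMM factors 4.68 and 6.63. Only 22.2% and 17.7% of their assigned counts lay in the dominant transcripts. The nearest other library, WT HS replicate 2, had an assigned share of 2.20%, a factor of 2.09 and 52.7% in the dominant transcripts. TMM is the scaling behind the counts per 1000000 (CPM) given below. Whether depth or composition had a part in the results was not tested.

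All counts of both transcripts were on their own strand. The transcript uc012cfg.1 had 972 counts over the 12 libraries and uc012fsd.1 had 527, and both had 0 antisense counts. Their either-strand and sense-strand counts were equal in all 12 libraries, so none of their sense reads was set aside because of a transcript on the opposite strand. Of 573 transcripts with at least 50 stranded counts, 216 (37.7%) showed the same, so this is not particular to the pair.

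The transcript uc012cfg.1 was counted in 10 of 12 libraries, and its highest values were in heated cells. Replicates 1 and 2 had 11 and 76 counts in unheated WT cells, 459 and 27 in WT HS, and 49 and 53 in WT recovery. In the knockout it had 77 and 44 counts in noHS, 30 and 146 in HS, and 0 and 0 in recovery. A single library stood high in each heated group, replicate 1 in the WT and replicate 2 in the KO, while the other heated library of each pair lay near or among the unheated ones.

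On the CPM scale, uc012cfg.1 in the WT was at 639 ± 537 in noHS, at 4734 ± 5641 in HS and at 993 ± 54.1 in recovery (SD, n = 2 each). In the KO it was at 1128 ± 398 in noHS and 2091 ± 2284 in HS (SD, n = 2 each), and at 0 in recovery. The heated libraries of a group differed 11.7-fold from each other in the WT and 7.79-fold in the KO, against 1.08-fold in WT recovery. In order of mean level the groups ran WT HS, KO HS, KO noHS, WT recovery, WT noHS and KO recovery. Each group overlapped its neighbour in that order, with the exception of KO recovery, where both libraries lay below all others. Scaled to all reads, WT recovery (37.4 counts per 1000000 reads) moved ahead of KO noHS (31.7).

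The transcript uc012fsd.1 was also counted in 10 of 12 libraries. Counts in the WT were 10 and 83 without heat, 149 and 8 in HS, and 37 and 59 in recovery. The KO libraries had 82 and 34 counts in noHS, 44 and 21 in HS, and 0 and 0 in recovery. WT HS thus held both its highest count and its lowest count above 0.

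In CPM, uc012fsd.1 in the WT was at 674 ± 620 in noHS, at 1526 ± 1846 in HS and at 934 ± 302 in recovery (SD, n = 2 each). KO noHS had 1077 ± 599 and KO HS 615 ± 117 (SD, n = 2 each), and KO recovery was at 0. Its WT HS libraries differed 12.8-fold and its KO HS libraries 1.31-fold. Mean levels ran WT HS, KO noHS, WT recovery, WT noHS, KO HS and KO recovery, and neighbours again overlapped except for KO recovery. The mean in KO HS was 0.571 times that in KO noHS in CPM and 0.754 times scaled to all reads, but 1.13 times as a share of the counts outside the dominant transcripts, so its direction in heated KO cells turns with the scaling. For uc012cfg.1 the same ratio was 1.85, 2.81 and 4.65, with overlapping libraries under all 3 scalings.

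**Figure D1:**
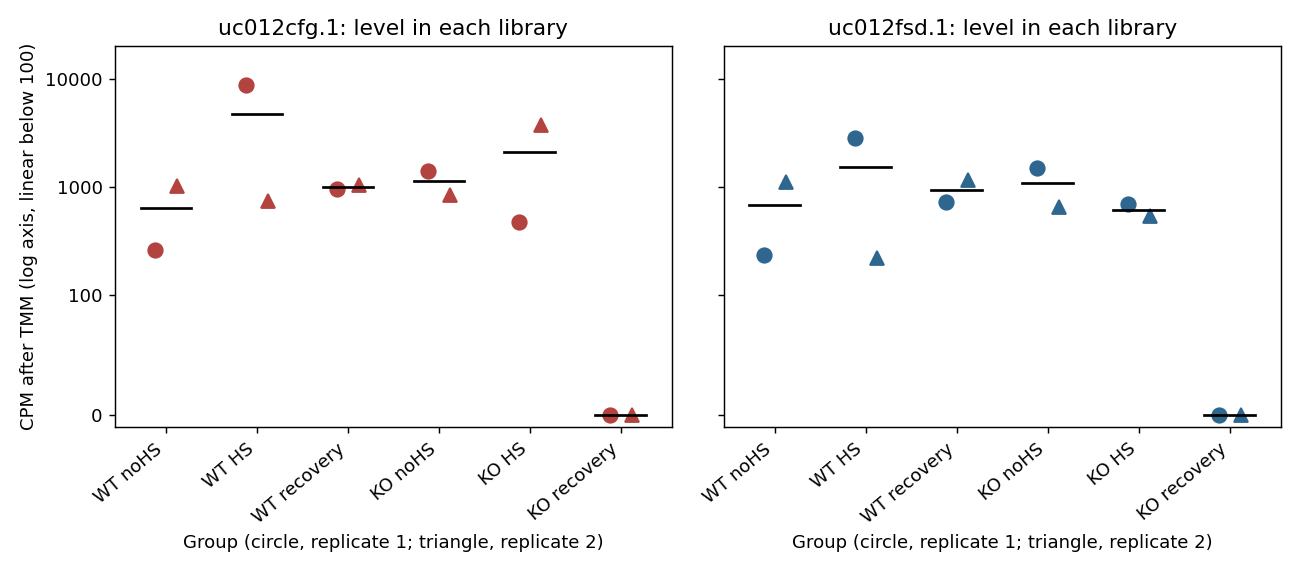
Level of uc012cfg.1 (left) and uc012fsd.1 (right) in CPM after TMM on a log axis that is linear below 100, by group, with circles for replicate 1, triangles for replicate 2 and a bar at the mean of the 2 libraries. Both KO recovery libraries are at 0 for both transcripts, and the heated libraries of uc012cfg.1 lie far apart, 8723 and 746 CPM in the WT.

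The rule that chose the pair used KO HS and KO recovery, so values in those groups are given without a test. As background, 8 of 618 transcripts were lower in KO recovery than in KO HS (1.29%, edgeR adjusted p below 0.05). Both transcripts are among the 8 because they were chosen on this contrast, so their place there is no result. The 6 others had 29 to 1786 counts in KO HS and up to 18 in KO recovery, and 1 of them was also at 0 there. By the rule's wording alone, 404 tested transcripts had counts in both KO HS libraries, of which 34 (8.42%) had none in KO recovery. The choice of the pair fixes that both are among the 34.

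The zeros in KO recovery can also be set against groups other than KO HS. With 0 of 17525 counts outside the dominant transcripts, KO recovery replicate 1 allows a share of up to 0.0171%, and replicate 2, with 0 of 7053, up to 0.0425%, for a floor of 3 counts. The lowest shares elsewhere were in WT noHS replicate 1, at 0.0566% for uc012cfg.1 (95% Clopper-Pearson interval 0.0283% to 0.101%) and 0.0515% for uc012fsd.1 (0.0247% to 0.0946%). By the same kind of interval, KO recovery allows up to 0.0210% in replicate 1 and 0.0523% in replicate 2 for both transcripts. The WT noHS intervals reach below both limits of KO recovery replicate 2, and its 0.0523% is above the 0.0515% of uc012fsd.1 itself. They do not reach below either limit of replicate 1. Reads copied by amplification can stem from 1 molecule, so such intervals and floors describe counting error alone.

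The zeros in KO recovery chose the pair, so the fold bounds here and below describe counting error alone. They leave out the spread between replicates. Against KO noHS, with 121 counts, the bound for uc012cfg.1 in KO recovery was 50.0-fold lower in CPM, with the floor taken over the group. The bound was 25.8 scaled to all reads and 16.6 as a share outside the dominant transcripts. Without KO recovery replicate 1 these bounds were 16.9, 7.13 and 4.77, and without replicate 2 they were 33.1, 18.7 and 11.9. For uc012fsd.1, KO noHS had 116 counts. The bounds were 48.0-fold in CPM, 24.7-fold scaled to all reads and 15.95-fold as a share outside the dominant transcripts. Those bounds were 16.2, 6.84 and 4.58 without KO recovery replicate 1, and 31.8, 17.9 and 11.4 without replicate 2.

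Wild-type recovery libraries, which the rule did not use, held both transcripts, at levels that overlapped those of unheated cells. Against their 102 and 96 counts, the bounds for KO recovery were 43.8-fold lower for uc012cfg.1 and 41.2-fold lower for uc012fsd.1 in CPM. Scaled to all reads the bounds were 28.7 and 27.0, and as shares outside the dominant transcripts 17.4 and 16.4. Without KO recovery replicate 1 they were 14.8 and 13.9 in CPM, 7.93 and 7.46 scaled to all reads, and 4.99 and 4.70 as shares. Without replicate 2 they were 29.0 and 27.3, 20.8 and 19.5, and 12.4 and 11.7. At the WT recovery share outside the dominant transcripts, the 2 KO recovery libraries would have held 37.2 and 15.0 counts of uc012cfg.1 and 35.0 and 14.1 of uc012fsd.1. The difference between the genotypes in recovery is not tested, because its KO side chose the pair.

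Among the 618 tested transcripts, 280 had counts in all 10 libraries outside KO recovery, and 13 of these (4.64%) had none in KO recovery. Both transcripts are among the 13, whose total counts ran from 42 to 972 with a median of 226. The highest total was that of uc012cfg.1, and uc012fsd.1 was second. The rule sets the zeros of the pair, and the totals include the KO HS counts it used, so these places are no result. Of all 618, 113 (18.3%) had no count in KO recovery.

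Comparisons that hold neither KO HS nor KO recovery are outside the rule, and 4 were tested for both transcripts. In WT cells under heat shock, 0 of the 2 passed the threshold, against 60 of 618 transcripts called (9.71%), all 60 lower. The fitted log2 fold change of uc012cfg.1, WT HS over WT noHS, was 2.87 ± 1.13 (SE, n = 2 per group, 95% interval 0.52 to 5.22, edgeR adjusted p = 0.0971). For uc012fsd.1 it was 1.17 ± 1.02 (SE, interval −0.96 to 3.30, edgeR adjusted p = 0.534). The median of the 618 was −0.54, with quartiles of −2.81 and 0.54, so both values were above the upper quartile, and uc012cfg.1 ranked 12 from the top.

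The heat shock value of uc012cfg.1 rested on WT HS replicate 1. Without that library its log2 fold change was 0.46 (edgeR adjusted p = 0.864) and that of uc012fsd.1 turned to −1.36 (edgeR adjusted p = 0.548). Without WT HS replicate 2 they were 4.14 and 2.44, and without WT noHS replicate 2, 4.45 and 2.96. For uc012cfg.1 the adjusted p lay close to the threshold and crossed it with some libraries outside the comparison left out. It stayed above the threshold without KO noHS replicate 1 or KO recovery replicate 2, and was 0.101 with only the groups compared (edgeR). It was 0.0475 without KO noHS replicate 2, 0.0437 and 0.0468 without KO HS replicates 1 and 2, 0.0314 and 0.0425 without WT recovery replicates 1 and 2, and 0.0499 without KO recovery replicate 1 (edgeR). It was also below 0.05 with sense-strand counts and scaled to counts outside the dominant transcripts. Leaving out both libraries under 20000 assigned counts takes away WT HS replicate 2. The log2 fold change of uc012cfg.1 was then 4.28, from WT HS replicate 1 alone.

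**Figure D2:**
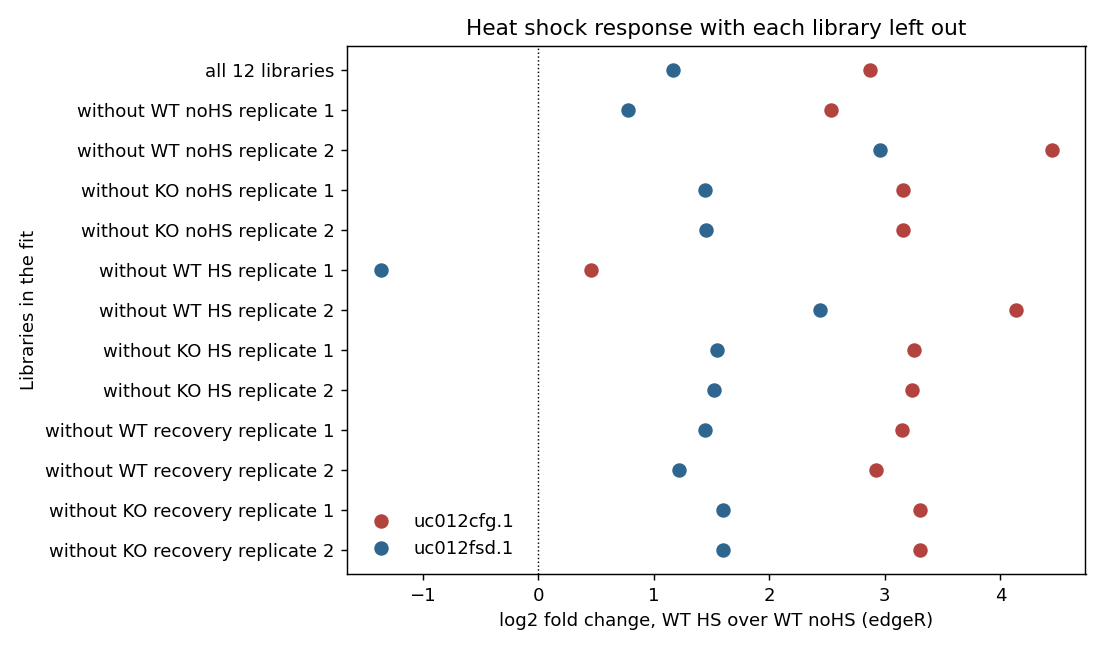
Fitted log2 fold change (edgeR), WT HS over WT noHS, on the horizontal axis, for uc012cfg.1 (red) and uc012fsd.1 (blue) with all 12 libraries and with each library left out in turn on the vertical axis. Without WT HS replicate 1 the values drop to 0.46 and −1.36, and in the fit of all libraries and the other 11 fits both transcripts are above 0.

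Libraries of WT HS and WT noHS overlapped for both transcripts in CPM, while those of 52.3% of the 618 transcripts did not overlap. As a share of counts outside the dominant transcripts, uc012cfg.1 had 0.0566% and 0.205% in unheated WT cells and 2.26% and 0.292% in WT HS. On that scale its groups did not overlap, as was so for 54% of transcripts, which is near the share on the CPM scale. The values of uc012fsd.1, 0.0515% and 0.224% against 0.734% and 0.0867%, still overlapped.

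From WT HS to WT recovery, 0 of the 2 transcripts passed the threshold, and edgeR called 0 of 618 (0%). There were 117 with an edgeR p below 0.05 before adjustment, and DESeq2 called 2. In CPM both transcripts overlapped between the groups, where 42.6% of the 618 did not. The log2 fold change, recovery over HS, was −2.25 ± 1.10 (SE, 95% interval −4.55 to 0.04, edgeR adjusted p = 0.271) for uc012cfg.1. It was −0.72 ± 1.01 (interval −2.83 to 1.40, edgeR adjusted p = 0.766) for uc012fsd.1. The median of all 618 was 0.55, on the other side of 0. Without WT HS replicate 1 both values turned, to 0.35 and 1.97 (edgeR adjusted p = 0.915 and 0.44). As shares outside the dominant transcripts, WT recovery had 0.249% and 0.187% for uc012cfg.1, below both WT HS libraries, as groups did not overlap for 40.9% of transcripts on that scale. The 95% Clopper-Pearson interval of WT HS replicate 2, 0.193% to 0.425%, overlaps those of both WT recovery libraries (0.184% to 0.329% and 0.140% to 0.245%).

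Recovered and unheated WT cells did not differ past the threshold in either transcript. Over WT noHS, the log2 fold change in WT recovery was 0.62 ± 1.07 (SE) for uc012cfg.1 and 0.45 ± 1.02 for uc012fsd.1 (edgeR adjusted p = 0.999 for both). The 95% intervals, −1.61 to 2.85 and −1.67 to 2.57, leave room for a large difference in either direction. Over all 618 transcripts the count of edgeR calls was 0 (0%), 27 had a p below 0.05 before adjustment, and the DESeq2 count was 0. Both transcripts overlapped between these groups, where 33.8% did not in CPM and 34.6% did not as shares outside the dominant transcripts. Without WT noHS replicate 1 the value of uc012fsd.1 was −0.10, and without WT noHS replicate 2 the pair had 2.15 and 2.18.

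Unheated KO and WT cells likewise gave no call for either transcript. KO noHS over WT noHS was 0.80 ± 1.07 (SE, 95% interval −1.43 to 3.03, edgeR adjusted p = 0.945) for uc012cfg.1. The value for uc012fsd.1 was 0.66 ± 1.02 (interval −1.46 to 2.78, edgeR adjusted p = 0.946). Here too the edgeR count was 0 of 618 (0%), 18 had a p below 0.05 before adjustment, and the DESeq2 count was 0. Both transcripts overlapped between the genotypes, where 45.3% did not in CPM and 44.2% did not as shares. Without WT noHS replicate 2 the values were 2.34 and 2.41, since WT noHS replicate 1 held only 11 and 10 counts.

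**Figure D3:**
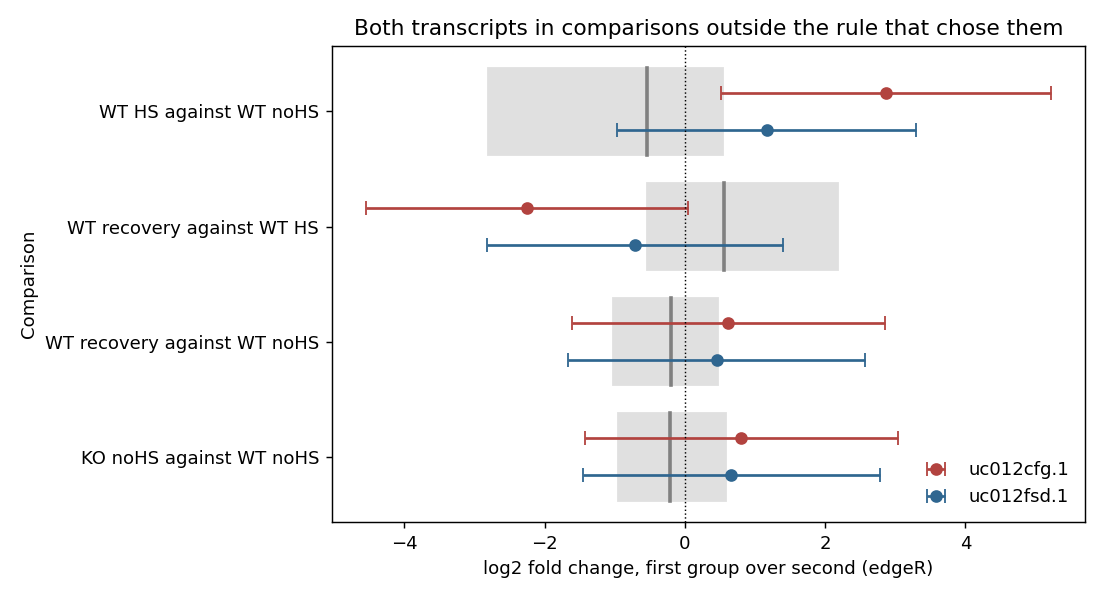
Fitted log2 fold changes (edgeR, horizontal axis) with 95% intervals for uc012cfg.1 (red) and uc012fsd.1 (blue) in the 4 comparisons outside the rule, over grey boxes for the quartiles and a grey line for the median of all 618 transcripts. Only the interval of uc012cfg.1 in WT HS against WT noHS, 0.52 to 5.22, leaves out 0, and its adjusted p is 0.0971.

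Within a library, the balance between the transcripts needs no scaling between libraries, and transcript length cancels when libraries are compared. This measure was chosen after the counts were seen. In the 6 unheated and WT recovery libraries, uc012cfg.1 made up 47.3% to 57.0% of the counts of the pair. In WT HS it made up 75.5% (95% Clopper-Pearson interval 71.9% to 78.9%) of 608 counts in replicate 1 and 77.1% (59.9% to 89.6%) of 35 in replicate 2. The WT HS libraries thus differed in balance by less than the counting error, although their levels of uc012cfg.1 differed 11.7-fold, and both lay above the 52.4% (29.8% to 74.3%) of 21 counts and the 47.8% (39.8% to 55.9%) of 159 in WT noHS. The interval of WT noHS replicate 1 overlaps those of both WT HS libraries, and that of replicate 2 lies below both. Between these groups, 52.3% of the 618 single transcripts did not overlap in CPM. The balance of other pairs of transcripts was not measured, so the separation cannot be called particular to this pair.

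On the log2 scale, the ratio of uc012cfg.1 to uc012fsd.1 was 1.69 ± 0.0931 in WT HS and 0.0052 ± 0.187 in WT noHS (SD, n = 2 each). The difference of 1.68 gave p = 0.333 in an exact permutation test (two-sided), which is the lowest value 6 arrangements can give, so this design cannot reach 0.05. Groups of 2 libraries that do not overlap always give this value, so the test decides nothing here. The KO HS libraries went apart, with 40.5% (29.3% to 52.6%) of 74 counts in replicate 1 and 87.4% (81.4% to 92.0%) of 167 in replicate 2. Pooled over the group, KO HS had 73.0%, a value that neither library showed.

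**Figure D4:**
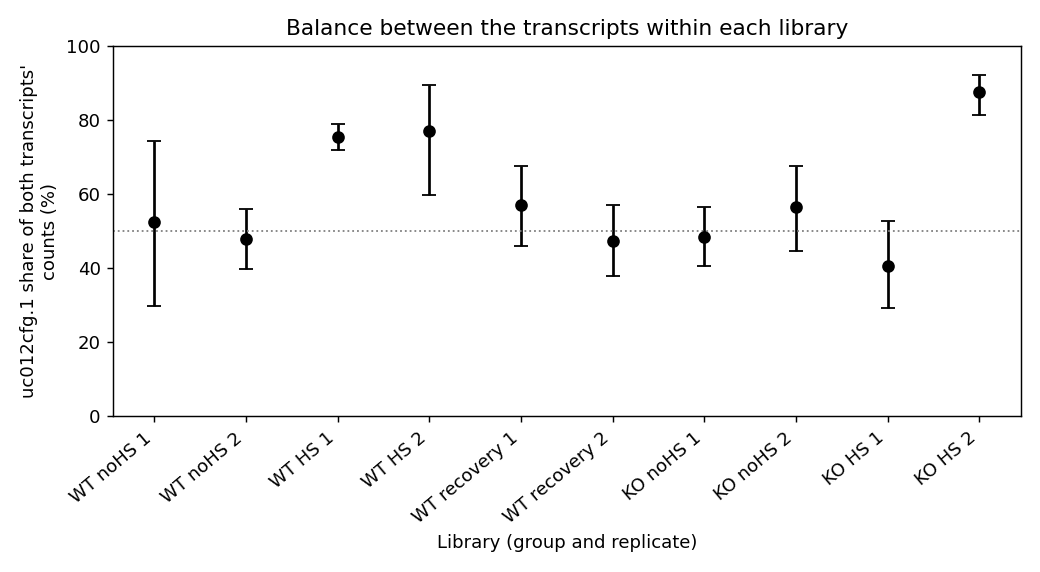
Share of uc012cfg.1 in the summed counts of uc012cfg.1 and uc012fsd.1 (vertical axis, percent) in each library that held counts (horizontal axis), with 95% Clopper-Pearson intervals and a dotted line at 50%. Both WT HS libraries, at 75.5% and 77.1%, lie above the unheated and WT recovery libraries, and the KO HS libraries, at 40.5% and 87.4%, lie on opposite sides of the line.

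Levels of the pair were more strongly correlated with the KO recovery libraries, where both were at 0, than without them. Over the 12 libraries, log2(CPM + 10) of the transcripts had a Pearson correlation of 0.94 and a Spearman correlation of 0.81. Over the 10 libraries outside KO recovery these were 0.67 and 0.67. The points share library depth and scaling, and KO recovery chose the pair, so the correlations are a description.

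By the same measure over the 12 libraries, the transcripts most like uc012cfg.1 were uc012fsd.1 and uc012hdk.1 (Pearson 0.94 each). The latter is one of the 4 dominant transcripts and has its stranded counts mostly on the antisense strand. It had 5557 either-strand counts in WT HS replicate 1, and 16 and 2 in the KO recovery libraries. Its antisense counts in these libraries were far higher, at 266346, 5561 and 1836. In KO recovery they too were lower than in every other library. They were 103867 and 107899 in KO HS, 150184 and 90141 in WT recovery and 18706 in WT HS replicate 2. Its sense counts were 3409 and 465 in KO recovery and 1316 and 562 in KO HS. The transcript was thus low on the antisense strand but still counted in KO recovery, and its change there was not tested. Most like uc012fsd.1 was uc011xvb.1 (0.95), followed by uc012cfg.1. The transcript uc011xvb.1 had 5 and 49 counts in unheated WT cells, 24 and 2 in WT HS, 57 and 19 in KO noHS, 19 and 4 in KO HS, 26 and 21 in WT recovery and none in KO recovery, all on the sense strand. Outside KO recovery its correlation with uc012fsd.1 over 10 libraries was 0.81, and that of uc012hdk.1 with uc012cfg.1 was 0.66.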

How the data were processed

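The authors deposited 1 table of raw read counts per library, with columns for either strand, the sense strand and the antisense strand, per the file layout, which is that of STAR. STAR, DESeq2 and build mm10 are named, without version or role, per the submitters' processing notes. For trimming, ribosomal RNA filtering and the annotation, settings were not given in the sources used. Unassigned classes, 91.2% to 98.7% of reads, stayed out of library sizes and tests. Reads over overlapping transcripts were ambiguous and lost.

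Either-strand counts of transcripts kept by filterByExpr (minimum count 10) were scaled by TMM and tested in edgeR 4.0.16 (R 4.3.3) with its quasi-likelihood test, in 1 fit of 12 libraries with group as the only term (6 residual degrees of freedom). Benjamini-Hochberg adjustment ran over all 618 transcripts, with a threshold of 0.05. The SE is the log2 fold change over the root of F. DESeq2 1.42.0 was an alternative. The fit was tested on simulated data. For each transcript, the 2 most alike by Pearson correlation of log2(CPM + 10) were named. The pair and the lists were chosen with earlier results of these data known. Planned heat shock and stem cell lists could not be read without gene names.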

Additional observations from a re-analysis of the deposited data

How the results depend on the processing

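Over 9 changes of scaling, tool, filter, count column, samples and block, the log2 fold changes of both transcripts kept their direction in all 4 comparisons, and no call was gained except for uc012cfg.1 in WT HS against WT noHS. That value was 3.27 scaled to counts outside the dominant transcripts (edgeR adjusted p = 0.0269) and 3.24 with sense-strand counts (0.0419). It was 3.03 with the replicate number as a block (0.177). Without the libraries under 20000 assigned counts, WT HS replicate 2 and KO recovery replicate 2, it was 4.28. That fit left WT HS replicate 1 alone in its group. Across the settings that kept both WT HS libraries its adjusted p (edgeR or DESeq2) ran from 0.0269 to 0.511. The cause was not tested. Same-number deviations correlated at −0.24 to 0.36 over the 15 pairs of groups, above 0.1 in 2 and below −0.1 in 3. Such values cannot tell whether libraries of the same number were prepared together.

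The count of 60 in WT HS against WT noHS became 0 with DESeq2 size factors in edgeR, 0 scaled to all reads, 8 with no filter on low counts, 115 with sense-strand counts, 117 with only the groups compared, 1 with the replicate block and 1 without both shallow libraries. The count of 0 in WT recovery against WT HS became 4 scaled to counts outside the dominant transcripts and 2 in the DESeq2 Wald test. The count of 0 in KO noHS against WT noHS became 2 without the shallow libraries.

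With each library left out, values in WT HS against WT noHS ran from 0.46 to 4.45 for uc012cfg.1, −1.36 to 2.96 for uc012fsd.1 and 0 to 167 calls. In WT recovery against WT HS they ran from −3.29 to 0.35, −1.80 to 1.97 and 0 to 83 calls. In WT recovery against WT noHS they ran from 0.14 to 2.15 and −0.10 to 2.18, and in KO noHS against WT noHS from 0.31 to 2.34 and 0.11 to 2.41, with 0 calls in both. A group left with 1 library is assumed to vary like the others. With a pseudocount of 50, uc011xvb.1 ranked 2 (0.92) and uc012cfg.1 ranked 4 (0.90) in likeness to uc012fsd.1. Counts of 11 and 10 in WT noHS replicate 1, and of 8 for uc012fsd.1 in WT HS replicate 2, limit the precision.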
